A study of Mus musculus with 24 samples.

Results

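Cytochrome P450 family 2 was followed across 24 liver RNA sequencing libraries as the genes of the count table named Cyp2 with a subfamily letter and a number, leaving out Cyp2e1. Of 49315 genes in the table, 47 bore such a name. Of these, 36 reached at least 10 counts in at least 6 libraries and are the members described here. They comprise 4 genes of Cyp2a, 3 of Cyp2b, 13 of Cyp2c, 7 of Cyp2d, 4 of Cyp2j, and 1 each of Cyp2f, Cyp2g, Cyp2r, Cyp2s and Cyp2u. Just inside the threshold lay Cyp2j13, with 8 such libraries, all of them tumour-bearing, so that its rise with tumours is part of how it was chosen. Just outside lay Cyp2t4, with 2. The other genes left out were Cyp2c65, with 1 such library, and Cyp2b19, Cyp2b23, Cyp2c66, Cyp2d34, Cyp2j7, Cyp2j8, Cyp2j11, Cyp2j12 and Cyp2w1, each with 0.

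The livers came from wild-type mice and from Mdr2-/- mice, which lack Abcb4, the transporter that moves phospholipid into bile. In each genotype 6 tumour-bearing livers had been transduced with AKT/YAP1 by a transposon that integrates the oncogenes, a model of cholangiocarcinoma, a cancer of the bile ducts. The 6 non-tumour control livers of each genotype had received the empty transduction. No label states age, sex or strain. Tumour-bearing livers were profiled as tissue, so a library can hold tumour and surrounding liver in unknown parts. Whether every library is a different animal is not stated, so p-values speak of the spread among libraries, which may be partly technical.

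Cytochromes P450 of this family are haem enzymes of the endoplasmic reticulum that insert oxygen into drugs, steroids, bile acids and fatty acids, with electrons from P450 oxidoreductase. Most members are made in hepatocytes, many of them in the zone around the central vein, and several differ between male and female mice under the control of pituitary growth hormone. Nuclear receptors such as CAR (Nr1i3) and PXR (Nr1i2) raise Cyp2b and Cyp2c genes when foreign compounds or bile acids arrive. In rodents the family has grown by local duplication, so that several members are close copies of a neighbour.

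Levels are given as CPM, read counts scaled to library size with TMM factors, which compares a gene between libraries. Levels of different genes are compared as TPM, which corrects for transcript length. A change is a log2 fold change ± SE from 1 edgeR quasi-likelihood model of all 24 libraries and 17216 genes. The SE was worked back from the test, as the absolute change over the square root of its F statistic. A gene rose or fell when its Benjamini-Hochberg adjusted p over all genes tested was under 0.05. All 36 members were among the genes tested. Library totals ran from 20976459 to 30288385 counts, so that 1 CPM rests on 16.4 to 34.2 counts. Abcb4 had at least 165 CPM in each wild-type library and at most 59.3 CPM in each Mdr2-/- library, as the genotype labels have it. Xist, an RNA of female cells, had at least 533 CPM throughout. Wild-type tumour replicate 6 and Mdr2-/- tumour replicate 1 stand apart from their groups over all genes, and counts are also given without them. The sample titles carry a number whose meaning the labels do not give. It lies below 2000 in 5 wild-type controls, 0 wild-type livers with tumours, 4 Mdr2-/- controls and 3 Mdr2-/- livers with tumours. In wild type every control has a lower number than every liver with tumours.

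Together the members took 1.57 ± 0.106% of all counts in wild-type controls (SD, n = 6), 1.04 ± 0.154% in wild-type livers with tumours, 1.04 ± 0.0584% in Mdr2-/- controls and 0.743 ± 0.0678% in Mdr2-/- livers with tumours. The lowest wild-type control, at 1.42%, lay above the highest library of every other group, 1.24%, 1.13% and 0.841%. The Cyp2c genes made up 58.7 ± 4.05% of the family's summed TPM in wild-type controls. Their share was 43.0 ± 3.13% in wild-type livers with tumours, 45.5 ± 2.51% in Mdr2-/- controls and 42.9 ± 3.54% in Mdr2-/- livers with tumours. The summed TPM of Cyp2c was 8627 ± 985 in wild-type controls, 4188 ± 823 and 4921 ± 381 in the next 2 groups, and 3067 ± 369 in Mdr2-/- livers with tumours. Cyp2d went less far. Its summed TPM was 2065 ± 278.8 in wild-type controls, then 1806 ± 492, 2244 ± 236 and 1592 ± 191 in the same order. The median summed CPM of Cyp2d was 2275, 1508, 1717 and 1182 in that order. Thus the direction of Cyp2d between controls depended on the scale, higher in Mdr2-/- in TPM and lower in CPM. The summed TPM of Cyp2b stepped down from 836 ± 224 to 590 ± 178, 466 ± 230 and 180 ± 55.9. These sums are a description and were not tested.

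**Figure D1:**
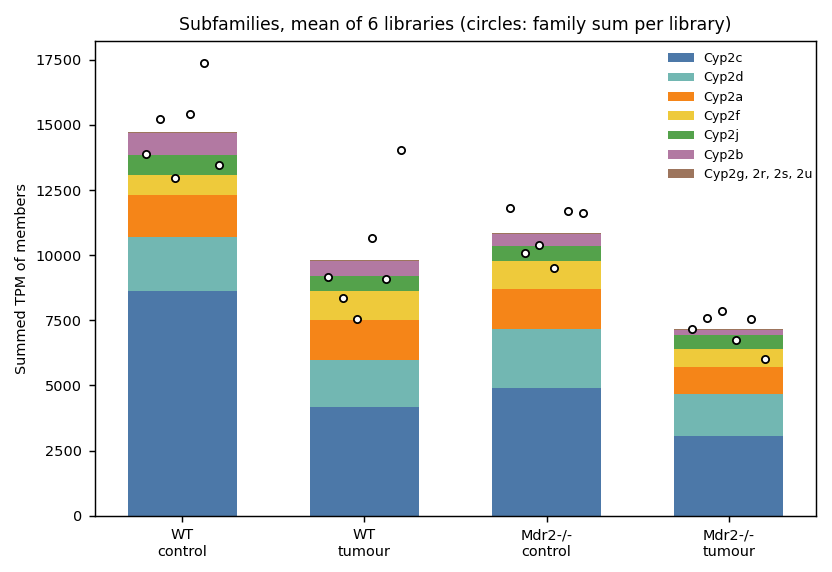
Summed TPM of the members by subfamily, as the mean of 6 libraries in each group (stacked bars), with the family sum of each library as an open circle. The Cyp2c block is the tallest in all 4 groups and shrinks from 8627 TPM in wild-type controls to 3067 TPM in Mdr2-/- livers with tumours.

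Per length, Cyp2c29, an enzyme that epoxidises arachidonic acid, stood first over all libraries with a mean of 1039 TPM. It was followed by Cyp2c70, which hydroxylates bile acids to muricholic acids, at 939 TPM, and by Cyp2f2, known for activating naphthalene, at 907 TPM. The highest members of the other subfamilies were Cyp2d10 at 883, Cyp2j5 at 558, Cyp2a12 at 540, Cyp2b9 at 305, Cyp2r1 at 21.5, Cyp2u1 at 6.65, Cyp2g1 at 6.25 and Cyp2s1 at 0.224 TPM. The top of the order was not the same gene in each group. Cyp2c29 led in wild-type controls at 1928 ± 437 TPM (SD, n = 6), Cyp2f2 in wild-type livers with tumours at 1124 ± 658 TPM, and Cyp2c70 in both Mdr2-/- groups, at 1332 ± 201 TPM in controls and 835 ± 222 TPM with tumours. The lead of Cyp2f2 over neighbours such as Cyp2c29, at 962 ± 235 TPM, lies within its spread.

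**Figure D2:**
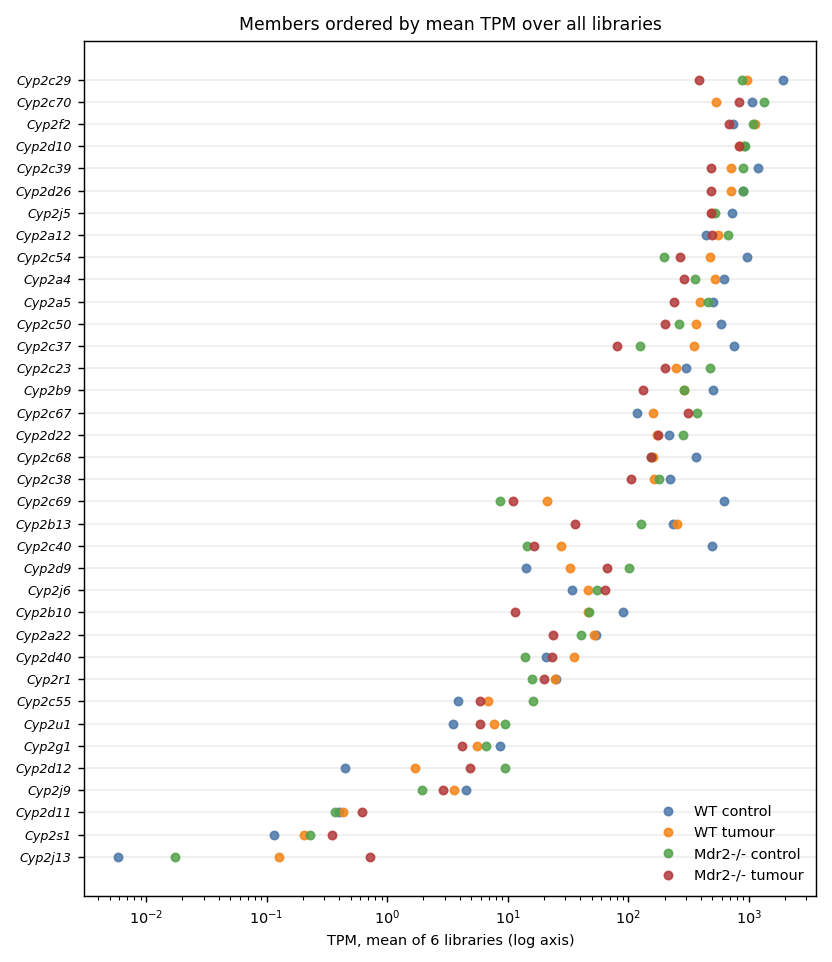
Mean TPM of each member in the 4 groups, on a log axis, with members ordered by their mean over all 24 libraries. Points of most members lie close together, whereas Cyp2c40 and Cyp2c69 lie at 497 and 623 TPM in wild-type controls and at 27.7 TPM or less in the other 3 groups.

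Most called members fell. In tumour-bearing against control Mdr2-/- livers 19 members fell and 2 rose, where 17% and 17.9% of all genes tested did so. In wild type 17 members fell and 4 rose, against a background of 11.5% and 16.9%. Cyp2j13 is 1 of the rises in each genotype. It is a member only through tumour-bearing livers, so those rises follow from the choice and are no result. Between Mdr2-/- and wild-type controls 21 members were lower and 5 higher, against 24.3% and 26.2% of all genes. Between the tumour-bearing livers of both genotypes 17 members were lower in Mdr2-/- and 2 higher, against 4% and 7.13%. Cyp2j13 is also 1 of these 2, and its value there is a description too. The share of members that fell was 52.8%, 47.2%, 58.3% and 47.2% in these 4 comparisons. The median member changed by -0.73, -0.61, -0.825 and -0.70, while the median of all genes lay between -0.02 and 0.04. By subfamily, of 13 Cyp2c members 8 fell with tumours in Mdr2-/- and 11 in wild type, with 0 rises and medians of -0.72 and -1.276, and 9 were lower and 2 higher in Mdr2-/- controls. Of 7 Cyp2d members 3 fell and 1 rose in Mdr2-/-, and 3 fell and 2 rose in wild type, with medians of -0.778 and -0.2. Of 4 Cyp2a members 3 fell in Mdr2-/-, with a median of -0.681 against -0.444 in wild type. Comparisons that share a group of libraries are not independent of each other.

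Without the libraries that stand apart, 20 members fell and 2 rose with tumours in Mdr2-/-, and 17 fell and 4 rose in wild type. Genotype then gave 20 lower and 5 higher members in controls, and 17 lower and 3 higher in tumour-bearing livers. The balance moves with the scaling. With library totals in place of TMM the median of all genes shifts by 0.24, 0.30, 0.30 and 0.25, and the members split into 13 down and 6 up, 14 down and 7 up, 18 down and 8 up, and 13 down and 5 up. The title number was also entered as a covariate, as below 2000 or not. With it 14 members fell and 3 rose with tumours in wild type, and 19 fell and 2 rose in Mdr2-/-. In wild type this split cannot part tumour from title number. There 1 control is not below 2000, and all controls have lower numbers than all livers with tumours. The same covariate gave 21 lower and 5 higher members between controls, and 19 lower and 1 higher between livers with tumours.

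**Figure D3:**
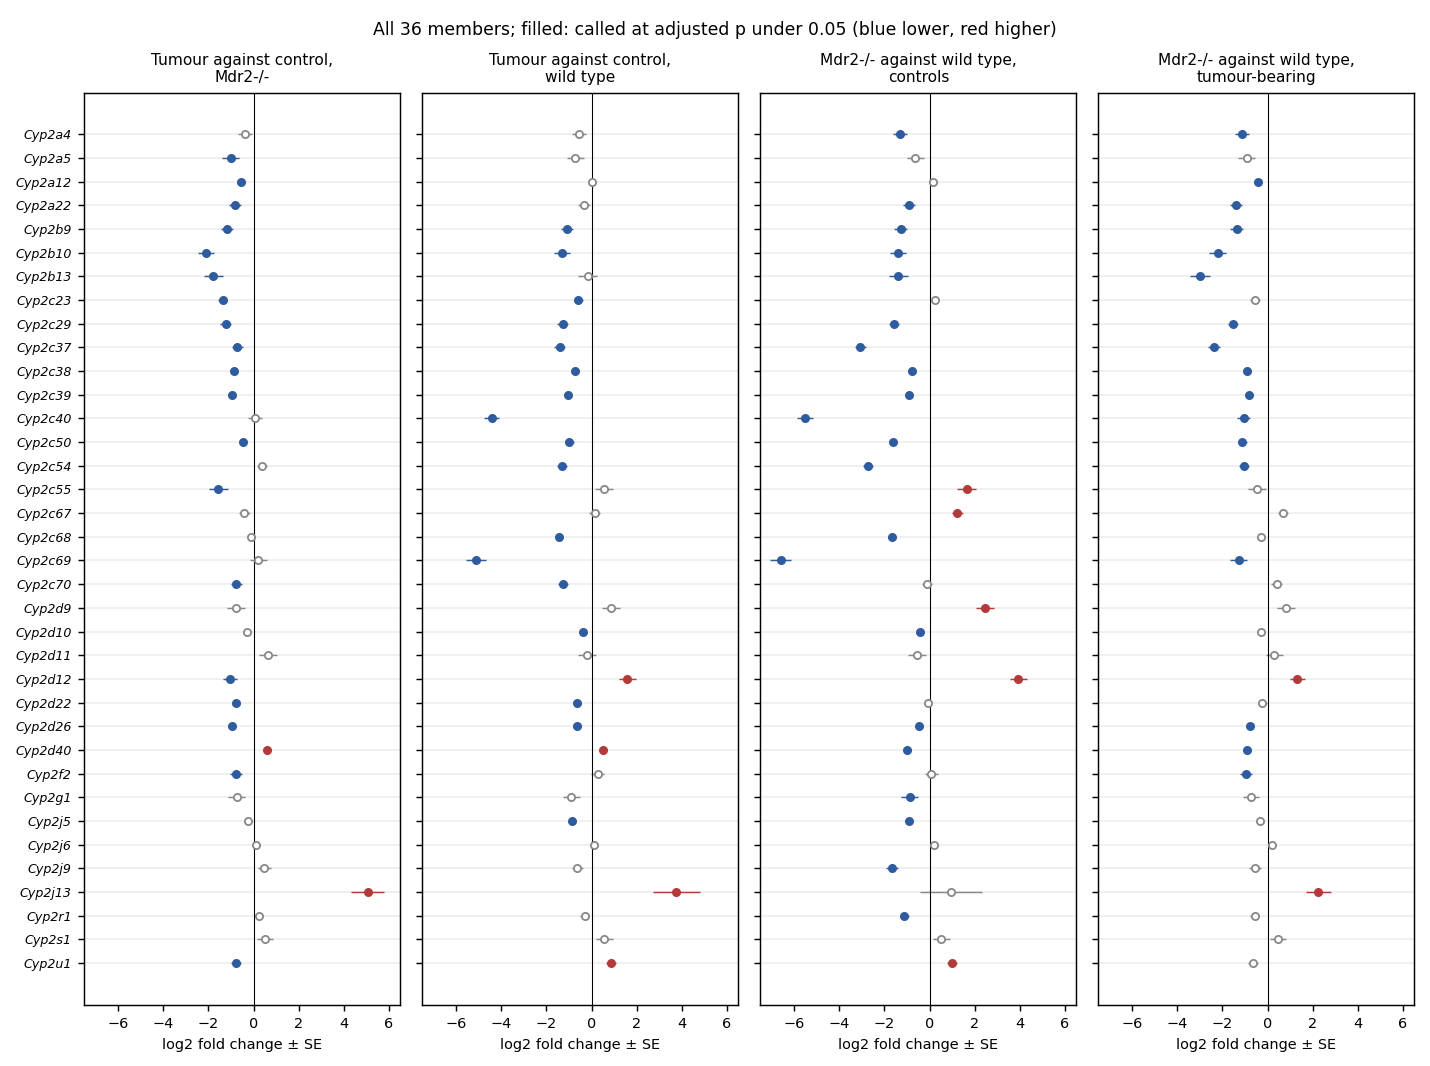
Log2 fold change ± SE of all 36 members in each comparison of 2 groups, by subfamily. Filled points mark members past an adjusted p of 0.05. Those of Cyp2j13 are a description, because it is a member only through tumour-bearing livers. Blue points left of 0 prevail in each panel, and Cyp2c40 and Cyp2c69 lie far to the left in wild type and between the controls, at -4.42 to -6.60.

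Markers of cell types in the same livers were read beside the shares of all genes tested. With tumours 17% of all genes fell and 17.9% rose in Mdr2-/-, and 11.5% fell and 16.9% rose in wild type. Between controls 24.3% were lower and 26.2% higher in Mdr2-/-, and between tumour-bearing livers 4% and 7.13%. The summed level of 15 secreted proteins of hepatocytes ran from 138748 to 180696 CPM in wild-type controls, 77450 to 126855 in wild-type livers with tumours, 114743 to 132886 in Mdr2-/- controls and 49216 to 91009 CPM in Mdr2-/- livers with tumours. With tumours, 10 of the 15 fell in Mdr2-/- and 8 fell and 1 rose in wild type. In controls 8 were lower and 2 higher in Mdr2-/-. Of 16 markers of bile duct epithelium 9 and 10 rose with tumours in Mdr2-/- and wild type, and 13 were higher in Mdr2-/- controls. Their sum was 132 to 264 CPM in wild-type controls, 274 to 1607 with tumours, 240 to 511 in Mdr2-/- controls and 1254 to 4457 CPM in Mdr2-/- livers with tumours, and no marker of either list was at 0 throughout. Between tumour-bearing livers 5 of the hepatocyte proteins were lower and 11 of the bile duct markers higher in Mdr2-/-. The medians with tumours in Mdr2-/- and wild type were -0.638 and -0.509 for the hepatocyte list and 1.391 and 1.952 for the bile duct list. Of 10 Kupffer cell markers 4 fell with tumours in Mdr2-/- and 5 rose in wild type, 6 were higher and 1 lower in Mdr2-/- controls, and 1 was higher and 2 lower between tumour-bearing livers, with sums of 336 to 434, 435 to 598, 425 to 674 and 364 to 714 CPM in the order of groups above. Of 10 markers of sinusoidal endothelium 5 fell in Mdr2-/- and 1 rose in wild type, 2 were lower in Mdr2-/- controls, and all 10 were lower in Mdr2-/- between tumour-bearing livers, with sums of 691 to 801, 609 to 882, 551 to 716 and 379 to 591 CPM. Of 10 markers of stellate cells and fibroblasts 4 rose in Mdr2-/- and 6 in wild type, 6 were higher in Mdr2-/- controls, and 5 were higher between tumour-bearing livers, with sums of 346 to 474, 570.1 to 1114, 683 to 1223 and 947 to 1244 CPM, and no marker of these 3 lists was at 0 throughout. The medians of these 3 lists with tumours were -0.309, -0.368 and 0.051 in Mdr2-/-, beside 0.039 for all genes. In wild type they were 0.38, 0.061 and 0.849, beside 0.028. Thus the median of the stellate list lay near that of all genes in Mdr2-/-, as did that of the sinusoidal list in wild type. Fewer hepatocytes and less RNA of a gene per hepatocyte cannot be told apart in bulk tissue. With the mean log2 level of the hepatocyte list as a covariate, 0 members passed for tumours in Mdr2-/- (10 at an unadjusted p under 0.05), while 14 did in wild type, 24 between controls and 7 between tumour-bearing livers. DESeq2 without the covariate gave 21 in Mdr2-/-. The part of these markers in the other results was not tested.

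The largest changes were those of Cyp2c40, an enzyme that hydroxylates arachidonic acid, and its near copy Cyp2c69. Both genes lie in a row with Cyp2c67 and Cyp2c68 on chromosome 19. In the RefSeq gene order (GRCm38.p6, whereas the counts rest on mm39) the row reads Cyp2c67, Cyp2c68, Cyp2c40 and Cyp2c69. Coding sequences of Cyp2c40 and Cyp2c69 are 97.9% identical and those of Cyp2c67 and Cyp2c68 97.2%, while pairs across are 91.2 to 92.6% identical. The stretches of RefSeq promoter shown here were taken around a motif that all 4 copies hold. Each holds 133 bases, all on the minus strand, and lies before the start at a distance that differs between copies, ending 93 bases before it in Cyp2c67, 45 in Cyp2c68, 13 in Cyp2c40 and 43 in Cyp2c69. Here the capitals mark CAAAGTCCA, a run of letters known from binding sites of the liver factor Hnf4a:
Cyp2c67, chr19:39649135-39649267: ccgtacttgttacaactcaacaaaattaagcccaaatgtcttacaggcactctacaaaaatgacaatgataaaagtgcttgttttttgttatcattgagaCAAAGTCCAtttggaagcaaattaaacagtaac
Cyp2c68, chr19:39741146-39741278: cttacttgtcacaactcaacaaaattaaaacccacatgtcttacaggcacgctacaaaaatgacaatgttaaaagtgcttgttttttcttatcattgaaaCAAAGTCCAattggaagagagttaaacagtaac
Cyp2c40, chr19:39812827-39812959: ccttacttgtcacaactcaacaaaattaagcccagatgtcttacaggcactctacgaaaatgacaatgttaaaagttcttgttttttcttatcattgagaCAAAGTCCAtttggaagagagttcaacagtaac
Cyp2c69, chr19:39886812-39886944: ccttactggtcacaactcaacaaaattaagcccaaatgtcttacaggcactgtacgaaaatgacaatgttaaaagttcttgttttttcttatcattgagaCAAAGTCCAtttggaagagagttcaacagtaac

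Over these stretches Cyp2c40 and Cyp2c69 share 130 of 133 aligned bases, and the other 5 pairs are 89.6 to 92.5% identical. Searched on both strands over 250 bases before the start, CAAAGTCCA is in 5 of 32 promoters of members (15.6%) and in 0.384% of 32817 RefSeq promoters. The fifth holder is Cyp2c70. The windows of 30 of the 36 members were given, and Cyp2c39 and Cyp2j13 have 2 starts each. TATAAA is in 15 of the 32 (46.9%, against 12.4% of all promoters). The palindromes TTCNNNGAA, of STAT factors, and TTGCGCAA, of C/EBP factors, are in 0 of 32 (7.02% and 0.165% of all promoters). The motifs were searched one by one, so matches may overlap. A match is a description, and close copies share much of their sequence.

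Cyp2c40 was at 256, 684 and 776 CPM in wild-type controls, as the lowest, median and highest library. It was at 13.7, 25.9 and 50.6 CPM in wild-type livers with tumours, 8.52, 13.4 and 16.5 in Mdr2-/- controls, and 8.44, 12.6 and 23.4 CPM in Mdr2-/- livers with tumours. Thus every wild-type control lay above every other library, and the other 3 groups reached into each other's range. Cyp2c40 fell by 4.42 ± 0.33 on the log2 scale with tumours in wild type (edgeR adjusted p = 6.78e-10) and was lower by -5.53 ± 0.35 in Mdr2-/- than in wild-type controls (adjusted p = 2.14e-11). With tumours in Mdr2-/- its change was 0.06 ± 0.29 (edgeR adjusted p = 0.894).

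Cyp2c69, one of the female-biased genes of mouse liver, was at 205, 770 and 830 CPM in wild-type controls. It was at 7.80, 16.2 and 38.0 CPM with tumours in wild type, 1.95, 7.78 and 9.10 CPM in Mdr2-/- controls and 4.93, 7.34 and 13.4 CPM in Mdr2-/- livers with tumours. Again no library of another group reached the wild-type controls. The changes were -5.11 ± 0.45 with tumours in wild type (edgeR adjusted p = 7.98e-09), -6.60 ± 0.48 between controls (adjusted p = 1.80e-10) and 0.20 ± 0.39 with tumours in Mdr2-/- (adjusted p = 0.703). The lowest wild-type control of both genes is replicate 6, the only wild-type control with a title number not below 2000. That number is still lower than those of all wild-type livers with tumours. Replicate 6 lay above the highest library of the other groups, 50.6 CPM for Cyp2c40 and 38.0 CPM for Cyp2c69. With title number below 2000 or not as a covariate, Cyp2c40 and Cyp2c69 fell by 3.92 ± 0.36 and 4.63 ± 0.50 in wild type. This split cannot part tumour from title number there, because all wild-type controls have lower numbers than all wild-type livers with tumours. Cyp2c40 and Cyp2c69 together gave 12.98% of the summed Cyp2c TPM in wild-type controls, 1.17% with tumours in wild type, 0.474% in Mdr2-/- controls and 0.893% in Mdr2-/- livers with tumours.

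Cyp2c68, also a close copy, kept more of its level. It was at 333, 370 and 466 CPM in wild-type controls, 94.9, 142 and 181 CPM with tumours in wild type, 106, 117 and 139 CPM in Mdr2-/- controls and 80.7, 104 and 164 CPM in Mdr2-/- livers with tumours. Wild-type controls did not overlap with any other group. The change was -1.46 ± 0.17 with tumours in wild type (edgeR adjusted p = 5.67e-07) and -1.68 ± 0.17 between controls (adjusted p = 2.83e-08). Cyp2c67, its nearest copy, went the other way between the controls, from 99.2, 127 and 146 CPM in wild type to 170, 283 and 455 CPM in Mdr2-/-, with no overlap. That rise was 1.23 ± 0.23 (edgeR adjusted p = 0.000153), while its changes with tumours, 0.13 ± 0.23 in wild type and -0.41 ± 0.23 in Mdr2-/-, did not pass (adjusted p = 0.71 and 0.163).

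The reads of such copies are not fully separable. Of the 150-base windows of coding sequence, the length of 1 read, 33.8% of those of Cyp2c40 and 23.8% of those of Cyp2c69 occur in another member (GENCODE M21 gene models). The counts of the copies nevertheless did not keep 1 ratio. Cyp2c67 had 0.288 to 0.404 counts per count of Cyp2c68 in wild-type controls, 0.587 to 1.57 with tumours in wild type, and in Mdr2-/- 1.61 to 3.79 without and 1.03 to 2.81 with tumours. Cyp2c69 had 0.803 to 1.22 counts per count of Cyp2c40 in wild-type controls and 0.229 to 0.821 in all other libraries. When the 4 copies are summed to 1 feature, an alternative chosen after seeing the data, the sum fell by 2.47 ± 0.21 with tumours in wild type (edgeR adjusted p = 7.72e-09). It was lower by -2.05 ± 0.21 in Mdr2-/- controls (adjusted p = 4.34e-08) and changed by -0.29 ± 0.20 with tumours in Mdr2-/- (adjusted p = 0.266).

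**Figure D4:**
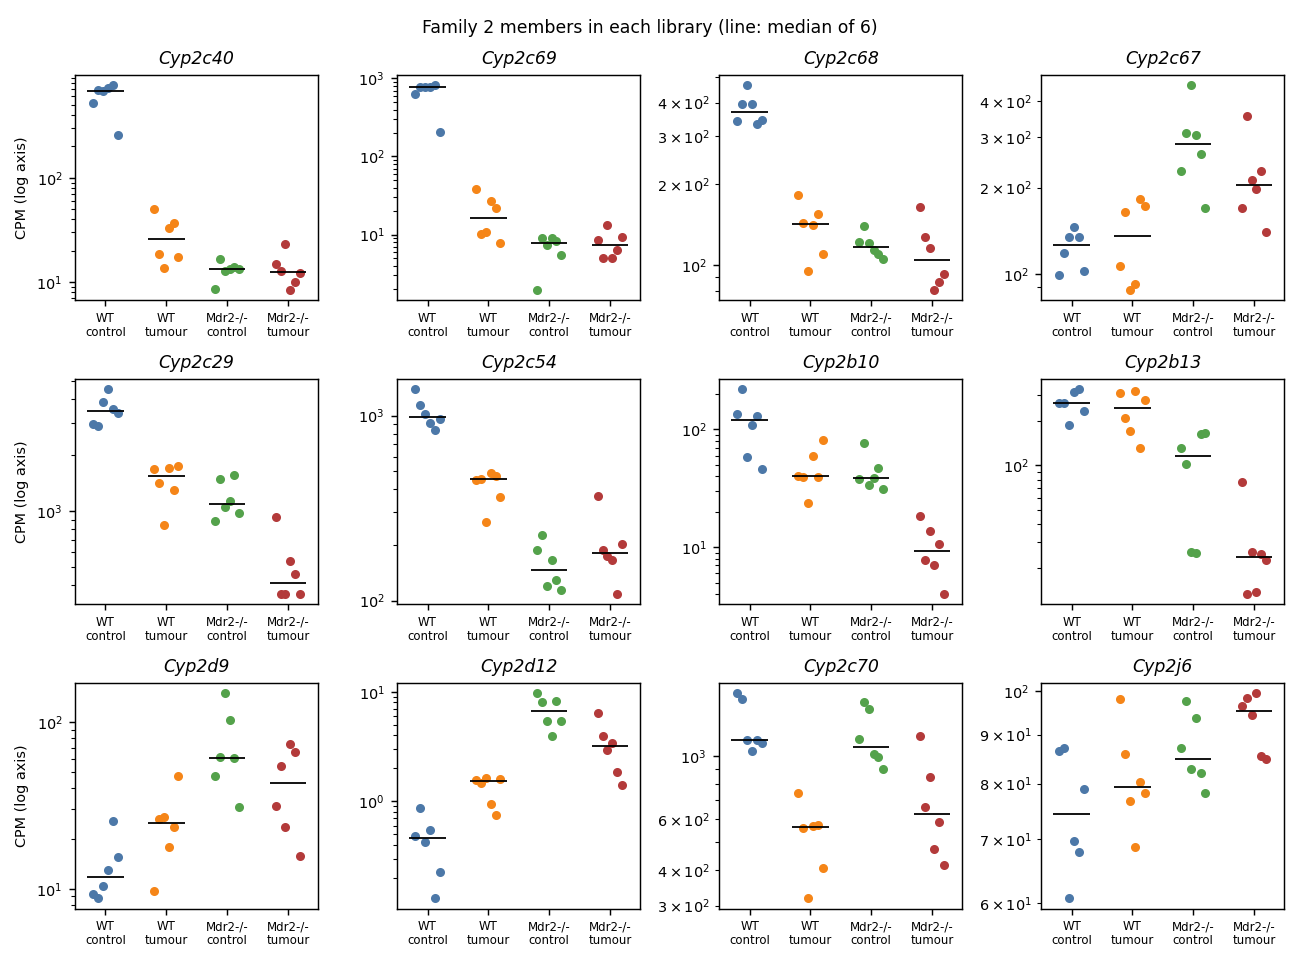
CPM of 12 members in each of the 24 libraries on log axes that differ between panels, with a line at the median of each group of 6. Cyp2c40 and Cyp2c69 are high in wild-type controls, Cyp2c67, Cyp2d9 and Cyp2d12 are higher in Mdr2-/- controls than in wild-type controls, and Cyp2j6 stays between 60.7 and 99.5 CPM.

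A second row of copies on chromosome 19, Cyp2c37, Cyp2c54 and Cyp2c50, is known from the pericentral zone, and its coding sequences are 95.1 to 96.1% identical. Cyp2c37 was at 591, 887 and 975 CPM in wild-type controls, 207, 292 and 514 CPM with tumours in wild type, 45.6, 107 and 141 CPM in Mdr2-/- controls and 45.5, 54.8 and 80.2 CPM in Mdr2-/- livers with tumours. The wild-type livers with tumours lay below all wild-type controls and above all Mdr2-/- libraries. Cyp2c37 changed by -1.40 ± 0.24 with tumours in wild type (edgeR adjusted p = 0.000139), -3.06 ± 0.26 between controls (adjusted p = 1.82e-09) and -2.38 ± 0.25 between tumour-bearing livers (adjusted p = 1.63e-06). In Mdr2-/- it fell with tumours by 0.72 ± 0.24 (adjusted p = 0.0247), a call that held in 19 of 24 fits that each leave out 1 library (-0.60 to -0.87).

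Cyp2c54 was at 834, 989 and 1393 CPM in wild-type controls and at 113, 147 and 226 CPM in Mdr2-/- controls, with no overlap, a difference of -2.73 ± 0.24 (edgeR adjusted p = 3.17e-09). With tumours it fell in wild type to 267, 453 and 489.5 CPM, by 1.33 ± 0.23 (adjusted p = 0.000128), while in Mdr2-/- it was at 108, 180 and 369 CPM and its change of 0.36 ± 0.23 did not pass (adjusted p = 0.212). Cyp2c50 fell in both genotypes, by 0.98 ± 0.18 in wild type and 0.49 ± 0.18 in Mdr2-/- (edgeR adjusted p = 0.000281 and 0.0397), and was lower by -1.61 ± 0.19 in Mdr2-/- controls. The call in Mdr2-/- held in 16 of the 24 fits without 1 library. Cyp2c37 had 0.662 to 0.991 counts per count of Cyp2c50 in wild-type controls and 0.195 to 0.394 in Mdr2-/- controls. Summed to 1 feature, these copies fell by 1.21 ± 0.19 with tumours in wild type (edgeR adjusted p = 5.40e-05), while the change of -0.24 ± 0.19 in Mdr2-/- did not pass (adjusted p = 0.325).

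The 3 members that precede Cyp2c67 in the RefSeq order, Cyp2c29, Cyp2c39 and Cyp2c38, were lower with tumours and lower in Mdr2-/- in all 4 comparisons of 2 groups. Cyp2c29 was at 2871, 3472 and 4552 CPM in wild-type controls, 846, 1550 and 1745 CPM with tumours in wild type, 883, 1093 and 1560 CPM in Mdr2-/- controls and 357, 408 and 933 CPM in Mdr2-/- livers with tumours. Wild-type controls lay above all other libraries, and in Mdr2-/- the highest tumour-bearing liver, replicate 1, reached into the controls. The falls with tumours were 1.28 ± 0.23 in wild type and 1.24 ± 0.23 in Mdr2-/- (edgeR adjusted p = 0.000166 and 0.000373), and the differences between genotypes were -1.58 ± 0.23 in controls and -1.54 ± 0.23 in tumour-bearing livers (adjusted p = 6.64e-06 and 0.000103). Cyp2c39 changed by -0.81 to -1.06 and Cyp2c38 by -0.74 to -0.91 over the 4 comparisons.

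Cyp2c70 and Cyp2c23 departed from this pattern. Cyp2c70, which sets the muricholic share of mouse bile acids, was at 1043, 1137 and 1655 CPM in wild-type controls and at a similar 901, 1078 and 1539 CPM in Mdr2-/- controls. Its difference between controls was -0.12 ± 0.23 (edgeR adjusted p = 0.673). With tumours it fell to 318, 564 and 739 CPM in wild type, below all controls, and to 415, 625 and 1177 CPM in Mdr2-/-, where the groups overlap. Those falls were 1.28 ± 0.23 and 0.76 ± 0.23 (adjusted p = 0.000204 and 0.0141). Cyp2c23, an epoxygenase of arachidonic acid, was at 376, 462 and 545 CPM in Mdr2-/- controls and 124, 186 and 209 CPM in Mdr2-/- livers with tumours, with no overlap, a fall of 1.37 ± 0.20 (edgeR adjusted p = 4.52e-05). In wild type it fell by 0.59 ± 0.20 (adjusted p = 0.0293), which held in 17 of 24 fits without 1 library, and the controls of both genotypes differed by 0.22 ± 0.20 (adjusted p = 0.366).

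Cyp2c55, best known from the intestine, was the lowest member of its subfamily. It was at 2.20, 4.58 and 8.17 CPM in wild-type controls and at 2.96, 12.1 and 27.3 CPM in Mdr2-/- controls, where replicate 1 is the lowest and the groups overlap. The difference was 1.64 ± 0.41 (edgeR adjusted p = 0.0021). In Mdr2-/- livers with tumours Cyp2c55 was at 1.16, 4.69 and 8.88 CPM, a fall of 1.56 ± 0.41 (adjusted p = 0.0063), against 0.55 ± 0.41 with tumours in wild type (adjusted p = 0.333).

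All 3 members of Cyp2b fell with tumours in Mdr2-/- and were lower in Mdr2-/- than in wild type in both conditions. Cyp2b10, the classical target of CAR, was at 46.0, 120 and 220 CPM in wild-type controls, 23.8, 39.8 and 81.8 CPM with tumours in wild type, 31.0, 38.3 and 76.2 CPM in Mdr2-/- controls and 3.99, 9.20 and 18.3 CPM in Mdr2-/- livers with tumours. The last group lay below all other libraries. Cyp2b10 fell by 2.11 ± 0.37 with tumours in Mdr2-/- (edgeR adjusted p = 0.000239), by 1.30 ± 0.36 in wild type (adjusted p = 0.00773), and was lower by -2.21 ± 0.37 between tumour-bearing livers (adjusted p = 0.000363).

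Cyp2b9 and Cyp2b13, female-biased genes with 92.7% identical coding sequence, share 0% of their 150-base coding windows. Their promoters are shown because they are almost the same while the levels parted with tumours in wild type. The 250 bases before each start (RefSeq, GRCm38.p6, plus strand) differ at 2 bases, in capitals, T48C and C104T as Cyp2b9 base, position from the left and Cyp2b13 base:
Cyp2b9, chr7:26173159-26173408: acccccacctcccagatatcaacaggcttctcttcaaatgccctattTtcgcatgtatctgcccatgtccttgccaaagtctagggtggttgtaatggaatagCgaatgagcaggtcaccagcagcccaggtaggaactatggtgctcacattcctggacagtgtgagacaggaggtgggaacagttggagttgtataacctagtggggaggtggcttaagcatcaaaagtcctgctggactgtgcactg
Cyp2b13, chr7:26061245-26061494: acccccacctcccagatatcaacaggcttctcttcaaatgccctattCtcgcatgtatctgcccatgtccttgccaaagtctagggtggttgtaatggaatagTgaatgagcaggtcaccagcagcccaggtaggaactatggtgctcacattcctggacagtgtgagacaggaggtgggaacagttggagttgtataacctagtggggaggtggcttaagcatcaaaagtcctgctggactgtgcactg

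Cyp2b9 was at 433, 569 and 784 CPM in wild-type controls and 175, 278 and 364 CPM with tumours in wild type, with no overlap, a fall of 1.10 ± 0.28 (edgeR adjusted p = 0.00458). Cyp2b13 was at 189, 265 and 329 CPM and at 132, 243 and 318 CPM in the same groups, which overlap, and its change of -0.17 ± 0.42 did not pass (adjusted p = 0.799). Cyp2b13 had 0.420 to 0.538 counts per count of Cyp2b9 in wild-type controls and 0.755 to 0.954 with tumours in wild type. In Mdr2-/- both fell with tumours, Cyp2b9 by 1.19 ± 0.28 and Cyp2b13 by 1.78 ± 0.43 (edgeR adjusted p = 0.00315 and 0.00379). Cyp2b13 spread widely in Mdr2-/- controls, at 25.4, 116 and 165 CPM, where replicates 3 and 4 lay at the low end, and was at 13.4, 23.9 and 76.8 CPM with tumours. As 1 summed feature the pair fell by 1.34 ± 0.31 with tumours in Mdr2-/- (adjusted p = 0.0028), while the change of -0.73 ± 0.31 in wild type did not pass (adjusted p = 0.0751). Between tumour-bearing livers Cyp2b13 was lower in Mdr2-/- by -2.99 ± 0.45 (adjusted p = 0.000116), with no overlap.

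With TMM scaling the Cyp2a genes that passed were lower with tumours or lower in Mdr2-/-. Cyp2a12, a steroid hydroxylase and the highest of the 4, was at 917, 1023 and 1106 CPM in Mdr2-/- controls and 489, 724 and 831 CPM in Mdr2-/- livers with tumours, with no overlap. It fell by 0.55 ± 0.14 (edgeR adjusted p = 0.00565) and changed by 0.02 ± 0.14 in wild type (adjusted p = 0.94). With tumours in wild type the changes of the other 3 Cyp2a genes, -0.33 ± 0.27 for Cyp2a22, -0.56 ± 0.31 for Cyp2a4 and -0.72 ± 0.37 for Cyp2a5, did not pass either (edgeR adjusted p = 0.393, 0.175 and 0.1555). With library totals in place of TMM, Cyp2a12 rose there by 0.31 ± 0.11 (adjusted p = 0.031). Cyp2a4, a testosterone hydroxylase of female liver, was lower in Mdr2-/- by -1.30 ± 0.31 in controls and -1.12 ± 0.31 in tumour-bearing livers (edgeR adjusted p = 0.00141 and 0.0194). Cyp2a5, the coumarin hydroxylase, ranged from 210 to 1343 CPM within the wild-type controls, and fell in Mdr2-/- with tumours (-1.0093 ± 0.38, adjusted p = 0.0398), which held in 16 of 24 fits without 1 library. Summed with Cyp2a4, its near copy, the change was -0.73 ± 0.33 and did not pass (adjusted p = 0.0789). Cyp2a22, whose coding sequence is 97.0% identical to that of Cyp2a12, fell by 0.81 ± 0.27 in the same comparison (edgeR adjusted p = 0.0247), which held in 20 of 24 fits without 1 library and was lost with library totals (adjusted p = 0.0518) and on both TPM scales. It was lower in Mdr2-/- by -0.90 ± 0.27 in controls, a call lost on both TPM scales, and by -1.39 ± 0.28 in tumour-bearing livers (edgeR adjusted p = 0.00814 and 0.0017).

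The pericentral and the female-biased members were also read as groupings known from healthy liver. Of 6 pericentral members, Cyp2a4, Cyp2a5, Cyp2c29, Cyp2c37, Cyp2c50 and Cyp2c54, 4 fell with tumours in each genotype, where 17% of all genes did in Mdr2-/- and 11.5% in wild type. In Mdr2-/- 5 were lower in each condition, where 24.3% of all genes were lower in controls and 4% in tumour-bearing livers. Their median change was -0.60 in Mdr2-/- and -1.13 in wild type with tumours, -1.59 between controls and -1.12 between tumour-bearing livers, beside medians of 0.039, 0.028, 0.03 and -0.019 over all genes tested. Of 5 female-biased members, Cyp2a4, Cyp2b9, Cyp2b10, Cyp2b13 and Cyp2c69, 3 fell with tumours in each genotype and 5 were lower in Mdr2-/- in each condition, against the same shares of all genes. Their median changes were -1.19, -1.10, -1.38 and -1.365 in the same order. Of all 36 members 52.8% fell with tumours in Mdr2-/- and 47.2% in wild type. In Mdr2-/- 58.3% of all members were lower in controls and 47.2% in tumour-bearing livers. Whether either grouping differs from the other members was not tested, and both were chosen with earlier results of these data known.

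The Cyp2d genes split. Cyp2d10 and Cyp2d26 are the most abundant ones per length, and both were lower with tumours in wild type. Cyp2d26 was at 708, 926 and 1026 CPM in wild-type controls, 377, 539 and 814 CPM with tumours in wild type, 571, 637 and 802 CPM in Mdr2-/- controls and 253, 323 and 392 CPM in Mdr2-/- livers with tumours, the last below all other groups except for an overlap with wild-type livers with tumours. It fell by 0.98 ± 0.16 in Mdr2-/- and 0.65 ± 0.16 in wild type with tumours (edgeR adjusted p = 0.000163 and 0.00383). Cyp2d22 fell by 0.79 ± 0.18 and 0.65 ± 0.18 (adjusted p = 0.00262 and 0.0094). Cyp2d10 fell by 0.40 ± 0.13 with tumours in wild type (adjusted p = 0.0271), which held in 21 of 24 fits without 1 library and in 5 of 12 other settings, being lost with library totals (adjusted p = 0.399) and on TPM among others. The wild-type falls of Cyp2d22 and Cyp2d26 were also lost on TPM. It was also lower by -0.41 ± 0.13 in Mdr2-/- controls (adjusted p = 0.0126), where it was at 584, 686 and 739.5 CPM against 785, 921 and 979 CPM, with no overlap. On log2(TPM + 1) the control differences of Cyp2d10 and Cyp2d26 were 0.04 and 0.0002 and did not pass.

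Cyp2d9, a testosterone hydroxylase known as male-biased, and Cyp2d12 were higher in Mdr2-/- controls. Cyp2d9 was at 8.76, 11.7 and 25.6 CPM in wild-type controls and 31.1, 61.2 and 149 CPM in Mdr2-/- controls, with no overlap, a difference of 2.45 ± 0.41 (edgeR adjusted p = 4.22e-05). Cyp2d12 was at 0.131, 0.459 and 0.876 CPM in wild-type controls, 0.750, 1.53 and 1.63 CPM with tumours in wild type, 3.97, 6.73 and 9.72 CPM in Mdr2-/- controls and 1.40, 3.18 and 6.41 CPM in Mdr2-/- livers with tumours. It rose by 1.58 ± 0.39 with tumours in wild type, where the groups overlap, and fell by 1.04 ± 0.32 in Mdr2-/- (edgeR adjusted p = 0.00376 and 0.0163). Between controls it was higher by 3.93 ± 0.39 in Mdr2-/- (adjusted p = 2.27e-08), with no overlap, and between tumour-bearing livers by 1.31 ± 0.34 (adjusted p = 0.0123), with overlap. Both genes are over 90% identical in coding sequence to the far more abundant Cyp2d10. Cyp2d9 had 0.00983 to 0.0282 counts per count of Cyp2d10 in wild-type controls and 0.0532 to 0.201 in Mdr2-/- controls. Summed with Cyp2d10 and Cyp2d11, the difference between controls was -0.27 ± 0.14 and did not pass (adjusted p = 0.0989). That sum is mostly Cyp2d10, so it cannot decide whether Cyp2d9 or Cyp2d12 differed. Of the 150-base coding windows, 1.76% of those of Cyp2d9 and 0.66% of those of Cyp2d12 occur in another member.

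Cyp2d40 rose with tumours in both genotypes. It went from 8.04, 15.9 and 17.3 CPM to 15.4, 19.97 and 27.2 CPM in wild type and from 5.38, 7.06 and 8.74 CPM to 6.54, 11.5 and 14.2 CPM in Mdr2-/-, with overlap in each. The rises were 0.50 ± 0.18 and 0.59 ± 0.18 (edgeR adjusted p = 0.0437 and 0.0171), and the first held in 17 of 24 fits without 1 library. Between genotypes Cyp2d40 was lower in Mdr2-/-, by -1.007 ± 0.19 in controls and -0.91 ± 0.18 in tumour-bearing livers (adjusted p = 0.000115 and 0.00201). Cyp2d11, at 0.737 CPM or less in every library, was called in no comparison.

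In Cyp2j the abundant Cyp2j5, an epoxygenase of arachidonic acid, was at 961, 1047 and 1105 CPM in wild-type controls, 442, 566 and 742 CPM with tumours in wild type, 442, 555 and 631 CPM in Mdr2-/- controls and 391, 442 and 525 CPM in Mdr2-/- livers with tumours. Wild-type controls lay above all other libraries. It fell by 0.85 ± 0.13 with tumours in wild type and was lower by -0.93 ± 0.13 in Mdr2-/- controls (edgeR adjusted p = 2.12e-05 and 2.92e-06), while with tumours in Mdr2-/- the change of -0.26 ± 0.13 did not pass (adjusted p = 0.111). Cyp2j9 was lower by -1.68 ± 0.27 in Mdr2-/- controls (adjusted p = 2.80e-05). Cyp2j6 was called in no comparison, with changes of 0.10 to 0.21.

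Cyp2j13 was near 0 without tumours, and it is a member only through its counts in tumour-bearing livers, so its values are a description with no test. The 6 wild-type controls held 2 counts in all and the 6 Mdr2-/- controls 6, against 43 in wild-type and 248 in Mdr2-/- livers with tumours. Per library this is 0 to 0.709 CPM with tumours in wild type and 0.221 to 2.27 CPM in Mdr2-/-, where the lowest is replicate 1 and no control, at 0.1001 CPM or less, reaches it. The ratio of summed counts with tumours to those of controls, scaled for library size, was 37.8 in Mdr2-/- and 17.3 in wild type.

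The single members of the other subfamilies went different ways. Cyp2f2 was at 420, 947 and 1272 CPM in wild-type controls, 600, 924 and 2115 CPM with tumours in wild type, 707, 867 and 1352 CPM in Mdr2-/- controls and 320, 591 and 669 CPM in Mdr2-/- livers with tumours. It fell by 0.77 ± 0.27 with tumours in Mdr2-/- (edgeR adjusted p = 0.0325), with no overlap. That call was lost on TPM, with library totals and in some fits without 1 library. Without Mdr2-/- tumour replicate 6 the change was -0.64 (adjusted p = 0.08245). Between tumour-bearing livers Cyp2f2 was lower in Mdr2-/- by -0.96 ± 0.28 (edgeR adjusted p = 0.024), with overlap. Without wild-type tumour replicate 6 that difference was -0.66 and did not pass (adjusted p = 0.0824). Cyp2u1, a hydroxylase of long fatty acids, rose by 0.85 ± 0.23 with tumours in wild type and fell by 0.79 ± 0.23 in Mdr2-/- (adjusted p = 0.0068 and 0.0106). The fall was lost with library totals (adjusted p = 0.0563) and on log2(TPM + 1) and log2(TPM + 0.1), and the rise with the title number as a covariate (adjusted p = 0.0765). Its levels were 8.40, 9.11 and 18.1, then 14.0, 18.4 and 29.7 CPM in wild type, and 15.8, 20.2 and 31.5, then 7.80, 11.8 and 17.7 CPM in Mdr2-/-, with overlap in each. Between controls it was higher in Mdr2-/- by 0.99 ± 0.23 (adjusted p = 0.00104).

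Cyp2r1, a hydroxylase that starts the activation of vitamin D, was at 20.9, 32.9 and 40.8 CPM in wild-type controls and 11.3, 14.5 and 18.3 CPM in Mdr2-/- controls, with no overlap. The difference was -1.12 ± 0.20 (edgeR adjusted p = 6.71e-05), and its changes with tumours were -0.31 ± 0.20 in wild type and 0.23 ± 0.20 in Mdr2-/- (adjusted p = 0.239 and 0.361). Cyp2g1, an enzyme of the nasal lining, was at 7.24, 9.74 and 20.8 CPM in wild-type controls, 3.84, 4.91 and 10.2 CPM with tumours in wild type, 1.10, 5.85 and 10.9 CPM in Mdr2-/- controls and 2.04, 3.33 and 5.87 CPM with tumours in Mdr2-/-. Neighbouring groups overlap, and the difference between controls of -0.89 ± 0.37 (adjusted p = 0.0467) held in 8 of 24 fits without 1 library. Its changes with tumours, -0.90 ± 0.37 in wild type and -0.75 ± 0.37 in Mdr2-/-, did not pass (edgeR adjusted p = 0.0686 and 0.115). Cyp2s1 was the scarcest of these, with medians of 0.302 and 0.532 CPM in wild-type controls and with tumours, 0.498 and 0.660 CPM in Mdr2-/-, and at most 1.04 CPM in a library. It was called in no comparison.

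The tumour effects of both genotypes were compared directly, as the effect in Mdr2-/- minus that in wild type. Of the 36 members 6 passed with a positive and 7 with a negative difference, where 11.9% and 13.4% of all genes did so. The share of members was 16.7% and 19.4%, and their median difference 0.01. The largest were Cyp2c69 at 5.31 ± 0.57 and Cyp2c40 at 4.47 ± 0.43 (edgeR adjusted p = 1.29e-06 and 2.75e-07), both lower with tumours in wild type and near their low control level in Mdr2-/-. Cyp2d12 at -2.62 ± 0.51 and Cyp2c55 at -2.11 ± 0.58 followed (adjusted p = 0.000993 and 0.0111).

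The others with a positive difference were Cyp2c54 (1.68 ± 0.32), Cyp2c68 (1.37 ± 0.23), Cyp2j9 (1.11 ± 0.38) and Cyp2j5 (0.60 ± 0.18). Those with a negative difference were Cyp2u1 (-1.64 ± 0.32), Cyp2d9 (-1.65 ± 0.56), Cyp2b13 (-1.61 ± 0.60), Cyp2c23 (-0.78 ± 0.28) and Cyp2a12 (-0.57 ± 0.20). Without the libraries that stand apart Cyp2a12, Cyp2c23, Cyp2d9 and Cyp2j9 no longer passed, and 5 positive and 4 negative calls were left. Leaving out either wild-type control replicate 3 or wild-type tumour replicate 6 gave 8 calls. Cyp2c40, Cyp2c54, Cyp2c55, Cyp2c68, Cyp2c69, Cyp2d12 and Cyp2u1 passed under each of the planned and added settings and in each fit without 1 library. For the copies this leaves aside their summing, with which the difference was 2.18 ± 0.29 for Cyp2c40, Cyp2c67, Cyp2c68 and Cyp2c69 (edgeR adjusted p = 1.71e-05) and 0.97 ± 0.27 for Cyp2c37, Cyp2c50 and Cyp2c54 (adjusted p = 0.0126). It no longer passed for Cyp2b9 with Cyp2b13 (-0.61 ± 0.43, adjusted p = 0.3) and for Cyp2d12 and Cyp2d9 with Cyp2d10 and Cyp2d11 (0.04 ± 0.19, adjusted p = 0.896). The last sum is mostly Cyp2d10 and so cannot decide about Cyp2d9 or Cyp2d12. Among the rest, the call held in 6 of 24 fits without 1 library for Cyp2b13, 10 for Cyp2c23, 14 for Cyp2j9, 15 for Cyp2a12, 17 for Cyp2d9 and 24 for Cyp2j5.

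**Figure D5:**
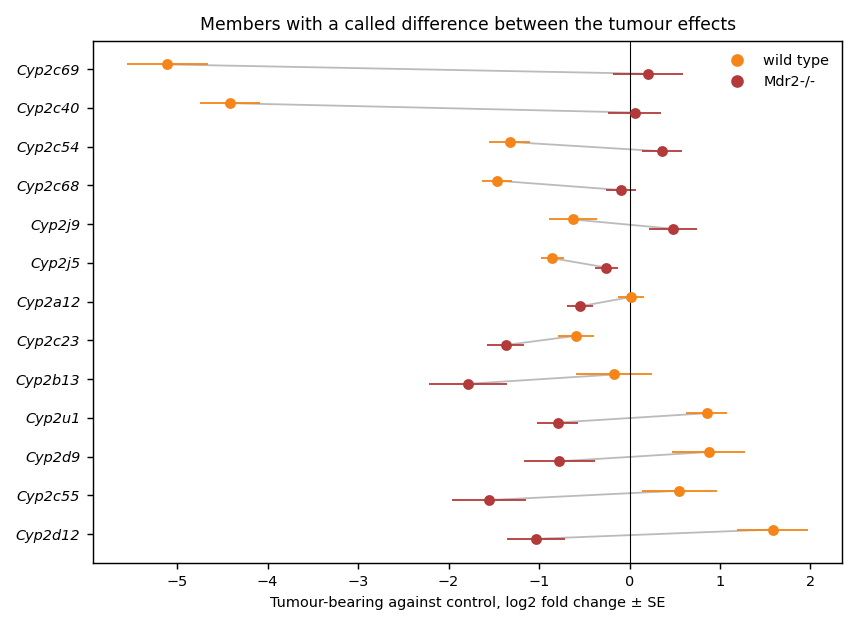
Log2 fold change ± SE of tumour-bearing against control livers in wild type (orange) and Mdr2-/- (red) for the 13 members whose effects differed. From the top, Cyp2c69 to Cyp2j5 have the lower effect in wild type, and Cyp2a12 to Cyp2d12 have the lower effect in Mdr2-/-.

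The regulators and partners of the family were read from lists, beside the shares of all genes tested: with tumours 17% fell and 17.9% rose in Mdr2-/- and 11.5% fell and 16.9% rose in wild type, and 24.3% were lower and 26.2% higher in Mdr2-/- controls. Of 10 genes of growth hormone signalling, 7 fell with tumours in wild type, 4 in Mdr2-/-, and 4 were lower in Mdr2-/- controls, with medians of -0.867, -0.598 and -0.156 and 0 rises. Cux2, a female-specific repressor in liver, fell by 1.78 ± 0.59 in wild type and 2.17 ± 0.60 in Mdr2-/- (edgeR adjusted p = 0.0263 and 0.00921). Prlr, the prolactin receptor, was at 549, 601 and 735 CPM in wild-type controls, 150, 229 and 292 CPM with tumours in wild type, and 154, 258 and 434 CPM in Mdr2-/- controls, with no overlap between the first group and the others. Ghr, the growth hormone receptor, fell by 0.81 ± 0.19 with tumours in wild type and changed by 0.01 ± 0.19 in Mdr2-/- (adjusted p = 0.00201 and 0.96).

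Of 23 nuclear receptors and liver transcription factors, 8 fell with tumours in Mdr2-/-, while 5 fell and 1 rose in wild type, with medians of -0.51 and -0.128. Hnf4a fell by 1.12 ± 0.25 in Mdr2-/- (edgeR adjusted p = 0.00226) and changed by -0.13 ± 0.25 in wild type (adjusted p = 0.74), a difference of -0.99 ± 0.35 (adjusted p = 0.0417). Of 16 genes known to respond to CAR and PXR outside the family, 11 fell in Mdr2-/- with tumours, and 4 rose and 4 fell in wild type, with medians of -0.77 and 0.272. Gsta1, a glutathione transferase, rose by 3.10 ± 0.56 in wild type and fell by 1.51 ± 0.42 in Mdr2-/- (adjusted p = 0.000215 and 0.00967). Akr1b7, an aldo-keto reductase, fell by 2.28 ± 0.46 with tumours in Mdr2-/- (adjusted p = 0.000859), while its change in wild type was 1.02 ± 0.54 (adjusted p = 0.164).

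Of 16 genes of P450 partners and of haem synthesis or breakdown, 3 fell in Mdr2-/- with tumours. In wild type 2 fell and 1 rose, and the medians in Mdr2-/- and wild type were -0.199 and -0.047. Those falls are near the shares of all genes and are no result about this list. Between controls 5 were lower and 3 higher in Mdr2-/-. Cpox, an enzyme of haem synthesis, fell by 0.81 ± 0.14 with tumours in wild type (edgeR adjusted p = 9.57e-05). Hmox1, which breaks haem down, fell by 0.93 ± 0.17 with tumours in Mdr2-/- (adjusted p = 0.000365). Of 8 tested genes of epoxide and arachidonic acid turnover 2 rose and 1 fell with tumours in each genotype, with medians of 0.04 in Mdr2-/- and 0.183 in wild type. Ephx2, the soluble epoxide hydrolase that acts on the epoxides made by Cyp2c and Cyp2j enzymes, fell by 0.81 ± 0.16 in wild type (adjusted p = 0.000501) and changed by -0.32 ± 0.16 in Mdr2-/- (adjusted p = 0.114).

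Among 16 drug-metabolising P450 genes that are not members, Cyp2e1 included, 11 fell and 2 rose with tumours in wild type, 4 fell and 2 rose in Mdr2-/-, and 8 were lower and 2 higher in Mdr2-/- controls. The medians were -0.815, -0.313 and -0.891. Cyp3a44 was at 45.5, 298 and 1271 CPM in wild-type controls and at 3.21, 7.45 and 55.0 CPM with tumours in wild type, and at 2.97, 5.11 and 7.80 CPM in Mdr2-/- controls. Its fall in wild type was 4.88 ± 0.77 and its difference between controls -6.60 ± 0.84 (edgeR adjusted p = 6.62e-05 and 1.97e-06). Cyp4a12a, a fatty acid hydroxylase of male liver, moved the other way. It was at 0.775, 1.79 and 4.58 CPM in wild-type controls and at 106, 128 and 349 CPM with tumours in wild type, with no overlap, a rise of 6.08 ± 0.80 (adjusted p = 8.07e-06). In Mdr2-/- controls it was at 2.00, 10.4 and 91.6 CPM, and the difference between controls was 3.21 ± 0.72 (adjusted p = 0.000936).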

How the data were processed

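RNA from mouse livers was cleared of rRNA with a bacterial kit, per the labels' protocols, and sequenced as 2x150 paired-end reads. The authors deposited raw counts per gene and TPM values, which are scaled to transcript length and to the same total per library. The submitters' processing notes name mm39 and DESeq2 without a version. Aligner, counter and use of strand: not given in the sources used here.

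By treatment label 24 libraries form 4 groups of 6, with no pairing. All 60 replicate pairs differed beyond sampling noise. Counts were tested with edgeR 4.0.16 in R 4.3.3 (filterByExpr with a minimum count of 10, TMM, robust glmQLFit, 2-sided glmQLFTest, 1 mean per group). Alternatives used DESeq2 1.42.0 and limma 3.58.1 on log2(TPM + 1) and log2(TPM + 0.1), other filters and scalings, fewer libraries and covariates. Tumour against control in wild type was also simulated over 16420 genes. There 2-fold changes were found for 83 of 100 genes and 4-fold ones for 98 of 100, and 6 other genes were called. The planted changes lay in well-counted genes only and were far fewer than the calls in the data. These shares therefore do not cover scarce members.

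Named in full were the member of highest TPM in each subfamily and, per comparison, called members with the 4 largest falls and rises (mean of at least 1 CPM in the higher group) or, for the difference of effects, the 4 largest values, with up to 3 genes of a list outside the family, by mean TPM or size of tumour effect. Other members are named with fewer values. Members and lists were chosen with earlier results of these data known. Coding identity came from GENCODE M21, promoters and gene order from RefSeq GRCm38.p6. Of the motifs searched in promoters, 1 is not reported here.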

Additional observations from a re-analysis of the deposited data

Results flagged for a closer look

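The spread within groups was examined for each member in each group, 144 groups of 6 libraries in all, and 14 held a library whose gap to the nearest of the others was large for the range of the group (above Dixon's 95% critical value). For normal values chance gives about 1 in 20 such groups. Levels in CPM need not be normal and members share libraries, so that rate may not apply here. Of the 14, 3 lie in Mdr2-/- tumour replicate 1, a library that stands apart from its group over all genes. They are Cyp2b13 at 76.8 CPM (others 13.4 to 25.9), Cyp2c29 at 933 CPM (357 to 538) and Cyp2c54 at 369 CPM (108 to 202). Wild-type tumour replicate 6, the other such library, was high in Cyp2c23 at 453 CPM (178 to 253) and Cyp2f2 at 2115 CPM (600 to 1109). Wild-type control replicate 6 was low in Cyp2c69 at 205 CPM (632 to 830) and high in Cyp2g1 at 20.8 CPM (7.24 to 11.3). Mdr2-/- tumour replicate 6 was low in Cyp2f2 at 320 CPM (549 to 669) and high in Cyp2s1 at 1.04 CPM (0.535 to 0.700).

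The remaining ones were Cyp2a4 at 788 CPM in wild-type tumour replicate 1 (276 to 456), Cyp2b10 at 76.2 CPM in Mdr2-/- control replicate 2 (31.0 to 47.4), Cyp2d26 at 802 CPM in Mdr2-/- control replicate 1 (571 to 649), Cyp2j9 at 2.11 CPM in Mdr2-/- tumour replicate 3 (3.85 to 4.83) and Cyp2u1 at 18.1 CPM in wild-type control replicate 5 (8.40 to 11.5).

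The tumour effects of the genotypes differed, by the test of the difference itself, for 13 members. As the log2 effect in Mdr2-/- minus that in wild type, the values were 5.31 for Cyp2c69, 4.47 for Cyp2c40, 1.68 for Cyp2c54, 1.37 for Cyp2c68, 1.11 for Cyp2j9 and 0.60 for Cyp2j5. They were -0.57 for Cyp2a12, -0.78 for Cyp2c23, -1.61 for Cyp2b13, -1.64 for Cyp2u1, -1.65 for Cyp2d9, -2.11 for Cyp2c55 and -2.62 for Cyp2d12. Of the 7 negative ones, Cyp2d12 and Cyp2u1 rose in wild type and fell in Mdr2-/-, each past the threshold.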

How the results depend on the processing

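With the hepatocyte marker level as a covariate 0 members were called for tumours in Mdr2-/- and 7 between tumour-bearing livers, against 21 and 19. The covariate of nuclear non-coding RNA left 5 members called for tumours in Mdr2-/- and 8 for the difference of effects, and without a filter 8 for that difference, against 13. Each of these covariates moves with the groups, and the cause was not tested. In fits that each leave out 1 library the calls numbered 16 to 21 for tumours in Mdr2-/-, 18 to 22 in wild type, 24 to 26 between controls, 15 to 24 between tumour-bearing livers and 8 to 14 for the difference. Of 100 calls over the 5 comparisons 80 held in all of these fits, and 39 under each of the other settings too, 0 of the 21 for tumours in Mdr2-/-, 9 of 21 in wild type, 18 of 26, 5 of 19 and 7 of 13. The 100 calls include those of Cyp2j13, whose rises with tumours follow from how it was chosen. DESeq2 called 21, 22, 26, 24 and 14 members. Signs turned for Cyp2f2 with tumours in Mdr2-/- (0.0035 with the non-coding RNA covariate, 0.50 with the hepatocyte covariate) and for Cyp2d10 with tumours in wild type (0.0222 with the latter). They also turned on log2(TPM + 1) and log2(TPM + 0.1) for Cyp2d10 between controls (0.0408 and 0.0409) and for Cyp2d26 (0.0002 and 0.0003), none past the threshold. The sum of near copies (identity of at least 90%) and the title number were chosen after seeing the data, and summing by RefSeq protein identity was not run. No paired analysis was possible because the labels give no replicate numbers. Those used here follow the order of the sample records within each group. Low counts limit Cyp2j13, Cyp2s1 and Cyp2d11, and also Cyp2d12 in wild-type controls, with 3 to 16 counts in a library.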
